A study of Homo sapiens with 8 samples.

Results

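The clustered histone genes encode the linker histone H1 and the core histones H2A, H2B, H3 and H4 from gene clusters on chromosomes 1, 6 and 12. They were taken as the rows of the count table whose symbol begins with HIST1H, HIST2H, HIST3H or HIST4H and that held at least 10 counts in at least 2 of the 8 libraries. This gave 48 genes out of 25369 rows in all. A further 25 of the 73 rows with such a symbol fell below the minimum, and 10 of these were listed at 0 in every library. The rule used no comparison between conditions, but it was set with earlier results of these data known.

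RNA was sequenced from LX-2, a single immortalized line of human hepatic stellate cells (HSCs), the collagen-producing cells of the liver. The cells were cultured on polyacrylamide hydrogels coated with fibronectin, either on a soft gel of 2 kPa or on a stiff gel of 40 kPa, for 2 or 4 days. There were 2 libraries for each of the 4 conditions, and no genetic or drug treatment was added. The study's text calls them biological replicates from independent experiments, which the labels do not specify further, and every p-value rests on the spread between 2 libraries of a condition.

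Replication-dependent histone genes supply the protein that packages newly copied DNA, and their mRNA is known to accumulate during S phase. Most of this mRNA has no poly(A) tail. It ends instead a few bases behind a short stem-loop that is bound by the stem-loop binding protein SLBP and cut by a complex that holds the U7 snRNP. Some clustered genes also give a longer, polyadenylated transcript when reads through the stem-loop end at a distant poly(A) signal. Because a library kit that selects poly(A) RNA captures these 2 forms unequally, the level of a histone gene reflects both the cell and the library. The labels call the starting material total RNA and name a NEBNext Ultra kit, and whether poly(A) RNA was selected or ribosomal RNA depleted is not given in the sources used here.

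The stem-loop is shown here because it separates the members into those whose annotated transcript stops at it and those that run on. A search for GG, any 2 bases, CTTTT, any base, AG, any 2 bases and CC in the 150 bases behind the stop codon (GRCh37 genome, GENCODE v44lift37 annotation, coding strand) found it in 41 of the 44 members with an annotated coding sequence. It began 23 to 58 bases behind the stop codon. The letters in capitals below are the 16 bases of the stem-loop, with 5 flanking bases on each side in lower case.
HIST1H1C, chr6:26055967-26055992, minus strand: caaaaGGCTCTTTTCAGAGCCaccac
HIST1H2BK, chr6:27114140-27114165, minus strand: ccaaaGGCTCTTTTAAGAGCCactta
HIST1H2AC, chr6:26124892-26124917, plus strand: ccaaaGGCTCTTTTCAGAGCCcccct
HIST1H1B, chr6:27834570-27834595, minus strand: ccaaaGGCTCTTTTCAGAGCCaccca
HIST1H2AK, chr6:27805658-27805683, minus strand: aaaaaGGTTCTTTTCAGAGCCaccta
HIST2H2AC, chr1:149858936-149858961, plus strand: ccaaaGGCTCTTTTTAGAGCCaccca
HIST1H4E, chr6:26205224-26205249, plus strand: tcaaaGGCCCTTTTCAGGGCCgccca
HIST1H4J, chr6:27792232-27792257, plus strand: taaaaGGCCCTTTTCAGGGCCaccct
HIST1H4K, chr6:27798951-27798976, minus strand: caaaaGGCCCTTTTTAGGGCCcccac

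The stem followed the histone class. All 8 H4 members with a stem-loop opened with GGCCC, whereas 32 of the 33 members of the other classes opened with GGCTC and none with GGCCC. The exception was HIST1H2AK. The sequence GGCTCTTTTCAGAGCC alone was carried by 25 members.

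By the annotation, 27 members ended at most 20 bases behind the stem-loop and are not among 6 genes known to give polyadenylated mRNA. They are called the stem-loop members here. The 6 known polyadenylated genes were HIST1H1C, HIST1H2AC, HIST1H2BD, HIST1H2BJ, HIST1H2BK and HIST2H2BE. The annotation of 12 members, 4 of these 6 included, ran more than 100 bases past the stem-loop. HIST1H1C and HIST1H2BK were annotated to end 4 and 5 bases behind it, and were placed among the 6 by the list alone. For HIST1H3D, a stem-loop member, the gene length used for the deposited FPKM was 921 bases against 503 bases in this annotation, so its counts may include a longer transcript.

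The promoters also differed by class. In windows from 250 bases before to 50 bases after the gene start (RefSeq, GRCh38.p14), 45 members could be matched. The octamer ATTTGCAT, searched on both strands and bound by the transcription factor POU2F1, was present in 18 of the 45 members and in 1.77% of 35116 promoters. It was found in 10 of 14 H2B and 7 of 10 H2A members, in 1 of 9 H3 members and in no H1 or H4 member. Neighbours on opposite strands, such as HIST1H2AC and HIST1H2BC, had overlapping windows, so 1 octamer can be counted for both. The H3 member was HIST1H3D, whose window overlapped that of the H2B gene HIST1H2BF. TATAAA was present in 29 of the 45 members against 11.5% of all promoters, and CCAAT in 39 members against 34.6%. The 250 bases before HIST2H2AC, which is transcribed away from HIST2H2BE across a shared promoter, are shown beside those before HIST1H4E, with the octamer, TATAAA and CCAAT (either strand) in capitals.
HIST2H2AC, GRCh38.p14 chr1:149886668-149886917, plus strand: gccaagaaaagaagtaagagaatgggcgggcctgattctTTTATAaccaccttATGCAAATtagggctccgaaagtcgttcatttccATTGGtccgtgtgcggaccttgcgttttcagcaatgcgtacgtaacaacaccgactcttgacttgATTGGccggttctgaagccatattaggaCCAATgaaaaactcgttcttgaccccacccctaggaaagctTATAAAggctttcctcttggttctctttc
HIST1H4E, GRCh38.p14 chr6:26204360-26204609, plus strand: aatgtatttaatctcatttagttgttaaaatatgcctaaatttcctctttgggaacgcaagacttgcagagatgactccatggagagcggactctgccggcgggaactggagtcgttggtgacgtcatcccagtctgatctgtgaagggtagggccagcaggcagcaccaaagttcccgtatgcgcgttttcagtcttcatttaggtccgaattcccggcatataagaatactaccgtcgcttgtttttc

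The clustered histone genes were a small part of these libraries, and a pair of genes held most of their counts. The 8 libraries held 19955975 to 27263935 counts, of which the 48 members took between 0.0204% and 0.0280%. HIST1H1C, a linker histone, and HIST1H2BK, a core histone H2B, held 61.6% of all member counts. The 6 known polyadenylated genes together held 78.2% and the 27 stem-loop members 12.6%. In total counts over 8 libraries the members ranged from 40 to 13747, with 14 members under 100 counts and 7 above 1000. At such counts the counting error of a single stem-loop member is large.

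On a per-length scale (FPKM, the authors' values), HIST1H1C stood highest with a mean of 103.5 over the 8 libraries and a range of 82.6 to 177.3. HIST1H2BK followed with 85.1 FPKM (70.2 to 122.7). These ranges overlapped between libraries, but within a library HIST1H1C was the higher in 8 of 8. Below them came HIST1H2AC with 21.6 FPKM (18.1 to 26.2), HIST1H2BJ with 15.4 (12.9 to 21.4), HIST1H2BD with 13.1 (10.5 to 14.3) and HIST3H2A with 12.3 (7.47 to 17.4), neighbours whose ranges also overlapped. A clear gap separated the pair at the top from HIST1H2AC, since the lowest value of HIST1H2BK lay above the highest of HIST1H2AC. HIST2H2BE, the last of the 6, was at 3.75 FPKM (2.90 to 4.62).

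Among the H4 genes HIST1H4J and HIST1H4K were highest, at 7.31 and 7.49 FPKM. Their coding sequences share every 100-base window, and their counts were nearly equal in each library, with 102 and 108 counts in the first soft library at 2 days and 45 and 48 in the second stiff library at 4 days. How reads were divided between them is uncertain. The highest H3 genes were HIST1H3H (2.71 FPKM) and HIST1H3C (2.58 FPKM), and the second H1 gene was HIST1H1E at 1.57 FPKM. The median member stood at 2.26 FPKM and 12 members were below 1 FPKM, HIST1H1B among them.

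**Figure D1:**
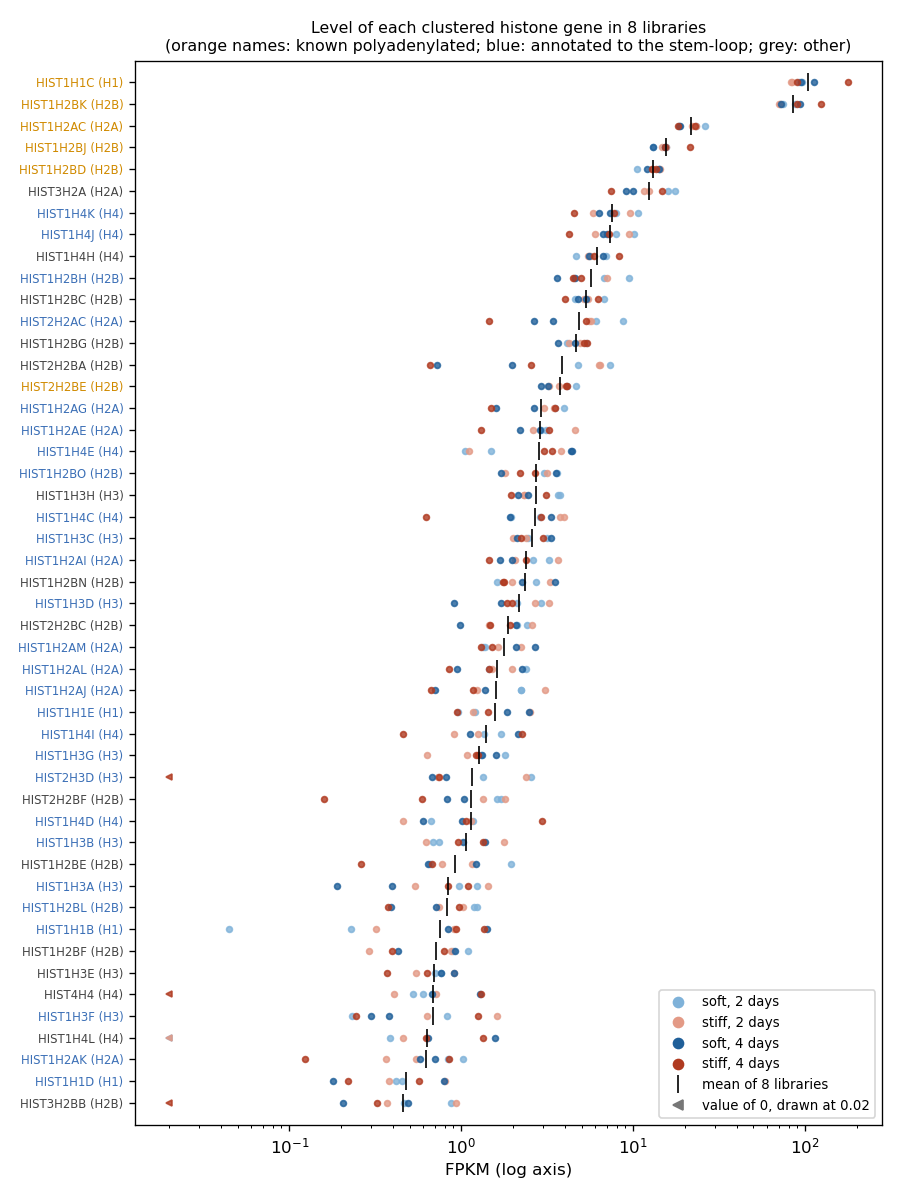
FPKM of each of the 48 clustered histone genes (rows, ordered by mean) in the 8 libraries on a log axis. Points are libraries coloured by matrix and time, and vertical ticks are means of 8 libraries. Name colours mark the known polyadenylated, stem-loop and other members. HIST1H1C (mean 103.5) and HIST1H2BK (85.1) lie apart from all other genes.

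Several identical gene copies could not be measured. HIST2H2AA3 and HIST2H2AA4, HIST2H3A and HIST2H3C, and HIST2H4A and HIST2H4B share their whole coding sequence within each pair, and all 6 were listed at 0 in every library. HIST1H2AI and HIST1H2AJ share about 80% of their 100-base windows and are likewise uncertain. HIST2H2BA and HIST2H2BC are pseudogenes.

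Replicates of a condition were compared before the conditions, since the stem-loop members varied between libraries in a way that other members did not. In the first and second library from the stiff gel at 2 days, the summed level of the 27 stem-loop members was 24.9 and 38.6 CPM (counts scaled to library size by the TMM method). All but 1 of the 27 had the higher CPM in the second library. Over the 26 of them that were tested, the median difference between the first and the second library was -0.72 on the log2 scale, against 0.01 over all 14570 genes tested and -0.04 over the 6 known polyadenylated genes. The 2 replicates therefore lay far apart in the stem-loop members and close together in the 6.

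Single members showed this gap plainly. HIST1H4E had 10 and 34 counts in these 2 libraries, HIST1H1B had 6 and 17, and HIST1H1E had 22 and 47. HIST1H1C, by contrast, had 1454 and 1443 counts, and HIST1H2BK had 1405 and 1430. Among the stem-loop members, HIST1H3G alone went the other way, with 12 and 7 counts.

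RMRP and RPPH1, the RNA parts of the nucleases RNase MRP and RNase P, differed between the same 2 libraries. Neither RNA carries a poly(A) tail. RMRP had 12 counts in the first stiff library at 2 days and 243 in the second, and RPPH1 had 11 and 102. Their summed level was 0.966 and 14.4 CPM. Of the list of RNA without a poly(A) tail, 9 genes were tested, this pair included. Of these 9, 7 were higher in the second library and 2 in the first. The median difference over the 9 was -0.34 on the log2 scale, against -3.56 for the pair. The DNA replication and G1/S genes did not show the gap, with a summed level of 4348 and 4337 CPM over 32 genes. Of the 24 G2/M and mitosis genes, 22 were higher in the first library and 2 in the second. Their median difference was 0.07 on the log2 scale, against 0.01 over all genes. What separated the 2 libraries was not tested.

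In the other conditions the summed levels of the stem-loop members lay closer between replicates. The first library was higher in 21 of 27 on the soft gel at 2 days, in 18 on the soft gel at 4 days and in 14 on the stiff gel at 4 days. The stiff libraries at 4 days differed in other ways. Genes with short models stood higher in the second library, with a median difference between first and second of -0.79 on the log2 scale for models up to 700 bases and of 0.41 for models over 4000 bases. HIST1H1C had 1348 and 2284 counts there and HIST1H2BK had 1533 and 1812. The models of this pair, 732 and 839 bases, lie between these classes. Among the 523 genes tested with models above 700 and up to 1000 bases, 468 were higher in the second library. Their median difference was -0.93, against -0.99 for HIST1H1C and -0.47 for HIST1H2BK. Whether model length accounts for the difference in the pair was not tested. The summed level of the 6 known polyadenylated genes was 181.9 and 277.4 CPM. The 26 stem-loop members tested had a median difference of -0.03 in these 2 libraries. Single members differed widely in both directions, from -2.32 for HIST2H3D to 1.83 for HIST1H4I. The soft libraries at 4 days also differed with model length, in the reverse order. Their median difference was 0.30 for models up to 700 bases and -0.19 for models over 4000 bases.

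**Figure D2:**
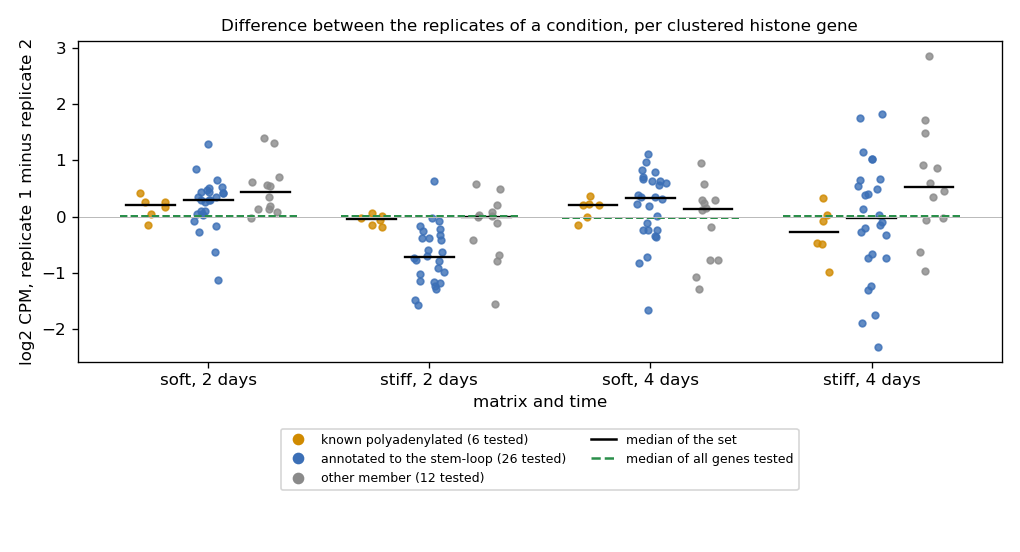
Difference in log2 CPM between replicate 1 and replicate 2 of each condition, one point for each of the 44 clustered histone genes tested, by member set. Black bars are set medians and dashed lines the median of all genes tested. At 2 days on the stiff gel the stem-loop members lie below 0, with a median of -0.72.

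**Figure D3:**
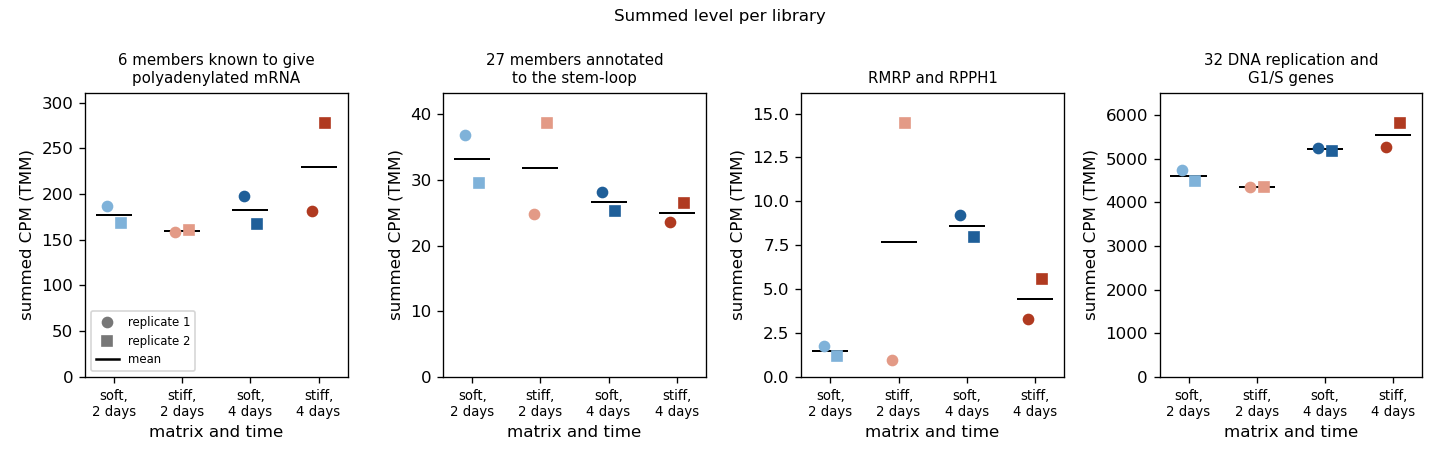
Summed CPM per library for the 6 known polyadenylated members, the 27 stem-loop members, RMRP with RPPH1, and the 32 DNA replication and G1/S genes. Circles are replicate 1, squares replicate 2 and bars the mean of 2 libraries. The second stiff library at 2 days lies above its replicate in the second panel (38.6 against 24.9 CPM) and the third (14.4 against 0.966 CPM), and beside it in the fourth.

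Whether a stiff matrix changed histone expression was asked at each time. Of the 48 members, 44 passed the count filter of the edgeR fit, and HIST1H2AK, HIST1H2BF, HIST1H3E and HIST3H2BB did not. After 2 days, none of the 44 passed an adjusted p of 0.05 between the matrices (by the quasi-likelihood test of edgeR with Benjamini-Hochberg adjustment), where 0% of all genes tested were called in either direction. DESeq2 and limma called none either. At an unadjusted p-value under 0.05 there was 1 member, which was higher, against 2.82% of all genes, 1.04% higher and 1.78% lower. The median log2 fold change of the members was -0.12, against 0.01 over all genes, and 15 members were above 0 and 29 below.

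The member with the lowest p-value at 2 days was HIST1H1B, a linker histone gene at chr6:27834570-27835366 (GRCh37). It had 1 and 5 counts on the soft gel and 6 and 17 on the stiff gel, and its log2 fold change was 2.12 (SE, the standard error, 0.82, adjusted p = 1 by edgeR). The libraries of the 2 matrices did not overlap, but the counts were few and the higher stiff value came from the library in which nearly all stem-loop members stood high. HIST2H2BE, the gene at chr1:149856009-149858232, had 9.22 and 10.2 CPM on the soft gel and 7.22 and 8.21 CPM on the stiff gel. Both stiff libraries were lower, and its log2 fold change of -0.34 (SE 0.16) did not pass the test. Over all genes tested, 25.7% were higher and 22.4% lower on the stiff gel at 2 days without overlap between the matrices.

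After 4 days, again none of the 44 members passed the adjusted threshold, where 0.247% of all genes were called, 0.0343% higher and 0.213% lower. DESeq2 and limma also gave 0. At an unadjusted p-value under 0.05 there were 2 members, 1 in each direction, against 6.93% of all genes, 2.61% higher and 4.32% lower. The median log2 fold change of the members equalled that of all genes, at 0.02 for both. HIST2H2BE had 6.49 and 7.21 CPM on the soft gel and 9.28 and 9.16 CPM on the stiff gel. Here both stiff libraries were higher, the reverse of 2 days, with a log2 fold change of 0.43 (SE 0.17, adjusted p = 0.636 by edgeR). Over all genes tested, 11.7% were higher and 14% lower on the stiff gel at 4 days without overlap. HIST2H2BF, an H2B gene at chr1:149754245-149783928, had 24 and 20 counts on the soft gel and 13 and 3 on the stiff gel, a log2 fold change of -1.26 (SE 0.52, adjusted p = 0.694 by edgeR).

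The number called, for the members and for all genes, depended on the first stiff library at 4 days. Without it, 7 members passed, against 16.5% of all genes called higher and 14.6% called lower in that fit, and the lone stiff library was assumed to vary like the other conditions. HIST1H1C, HIST1H2BJ, HIST1H2BK, HIST1H4D and HIST3H2A were then higher on the stiff gel, and HIST2H2BF and HIST4H4 were lower. HIST1H1C had the lowest adjusted p among these members (log2 fold change 0.79, adjusted p = 0.00034 by edgeR). Without the second stiff library instead, none passed.

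Whether the effect of stiffness changed with time was tested as an interaction. No member passed the adjusted threshold, where 0% of all genes were called, and DESeq2 and limma called none. At an unadjusted p-value under 0.05 there were 3 members, 1 higher and 2 lower, against 1.95% of all genes, 0.776% higher and 1.17% lower. HIST2H2BE was the first of these, with a change of 0.76 (SE 0.23, adjusted p = 1 by edgeR), followed by HIST1H1E with -1.62 (SE 0.62, adjusted p = 1 by edgeR) and the stem-loop member HIST1H2AM with -1.27. Without the first stiff library at 4 days, 6 members passed, against 11.1% of all genes called higher and 9.85% called lower.

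The time in culture was compared on each matrix. On the soft matrix, 2 members rose from 2 to 4 days and 1 fell (adjusted p under 0.05, edgeR), where 27.4% of all genes were called, 14.1% higher and 13.3% lower. At an unadjusted p-value under 0.05 there were 4 higher and 8 lower, against 21.2% and 19.8% of all genes. Both counts are smaller shares of the 44 members than of all genes, and the low counts of most members were not weighed in this. The median log2 fold change of the members was -0.25, against 0.02 over all genes. In CPM, 19 members were lower in both 4-day libraries than in both 2-day libraries and 8 were higher, against 36.7% and 38.5% of all genes.

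HIST1H1B rose on the soft gel. It had 1 and 5 counts at 2 days and 24 and 15 counts at 4 days, or 0.11 ± 0.10 and 0.90 ± 0.31 CPM (SD, n = 2), and both 4-day libraries were higher. A change in the number of cells that express a histone gene and a change in its RNA per cell cannot be told apart in bulk RNA. The log2 fold change was 3.01 (SE 0.76, adjusted p = 0.0239 by edgeR). HIST1H4E, a core histone H4 gene at chr6:26204838-26205249, rose as well, with 16 and 11 counts at 2 days and 36 and 37 at 4 days. Its log2 fold change was 1.79 (SE 0.53, adjusted p = 0.0402 by edgeR). Both are stem-loop members, and their promoter sequences held no octamer.

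HIST2H2BA, an H2B pseudogene, fell on the soft gel. It had 108 and 68 counts at 2 days and 8 and 23 at 4 days, with a log2 fold change of -2.13 (SE 0.57, adjusted p = 0.0295 by edgeR). HIST1H2BH and HIST2H2BE came nearest to the threshold without passing it. HIST1H2BH, a stem-loop member, had 115 and 80 counts at 2 days and 33 and 44 at 4 days, and its log2 fold change was -0.97 (SE 0.31, adjusted p = 0.0509 by edgeR). HIST2H2BE was at 9.74 ± 0.73 CPM at 2 days and 6.85 ± 0.52 CPM at 4 days (SD, n = 2), and its log2 fold change of -0.51 missed the threshold narrowly (adjusted p = 0.0525, edgeR).

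The count on the soft gel moved with the fit. When the soft libraries were fitted on their own, 14 members passed, 3 higher and 11 lower, against 24.7% and 25.9% of all genes. Leaving out either stiff library at 4 days also gave 14, with 4 higher and 10 lower, against 26.1% and 26.8% of all genes without the first and 25.4% and 27.3% without the second. HIST1H1E joined the members that rose, and HIST1H2AC, HIST1H2AG, HIST1H2BH, HIST1H3A, HIST1H3D, HIST2H2AC, HIST2H2BE, HIST2H2BF and HIST3H2A those that fell, in all 3 fits. Leaving out any 1 soft library gave 0, in fits that called only 0.728% to 3.88% of all genes higher and 1.59% to 4.64% lower. With the replicate number as a block, HIST1H1B was the 1 member called.

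On the stiff matrix, no member rose from 2 to 4 days and 2 fell, where 27.6% of all genes were called, 14% higher and 13.7% lower. At an unadjusted p-value under 0.05 there were 2 in each direction, against 21.6% higher and 19.8% lower over all genes. In CPM, 8 members were higher and 10 lower in both 4-day libraries, against 31.6% and 31.1% of all genes. HIST2H2BA had 78 and 79 counts at 2 days and 27 and 6 at 4 days, and its log2 fold change was -1.93 (SE 0.57, adjusted p = 0.0407 by edgeR). HIST2H2BF fell from 34 and 46 counts to 13 and 3, with a log2 fold change of -1.99 (SE 0.49, adjusted p = 0.0224 by edgeR). On the soft matrix HIST2H2BF had 52 and 48 counts at 2 days and 24 and 20 at 4 days, a log2 fold change of -0.81 that did not pass the test (adjusted p = 0.181 by edgeR). HIST2H2BA was therefore the 1 member called on both matrices. Without the first stiff library at 4 days 6 members passed, 4 higher and 2 lower, against 26.4% and 25.7% of all genes. Without the second 7 passed, all lower, against 22.6% of all genes. Leaving out any 1 of the soft or stiff libraries at 2 days gave 0, in fits that called 1.10% to 8.10% of all genes higher and 2.04% to 8.42% lower. The stiff libraries fitted on their own gave 0 members and 0 calls over all genes, and with the replicate block HIST2H2BF was the 1 member called.

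HIST1H1B and HIST1H4E, called on the soft gel, had values on the stiff gel in which the 2-day replicates differed as described above. HIST1H1B had 6 and 17 counts at 2 days and 22 and 13 at 4 days on the stiff gel, a log2 fold change of 0.93 (adjusted p = 0.296 by edgeR). HIST1H4E had 10 and 34 counts and then 26 and 20, a log2 fold change of 0.40 (adjusted p = 0.599 by edgeR). The change between the matrices was -2.08 for HIST1H1B and -1.39 for HIST1H4E, each with an adjusted p of 1 in edgeR's interaction test, so neither effect was shown to differ between the matrices.

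By class, H2A stood lower at 4 days on both matrices. Their fitted log2 fold changes were below 0 for 8 of the 9 H2A genes tested on the soft gel and for all 9 on the stiff gel, with medians of -0.65 and -0.54, and none passed the test. Their summed level was 34.9 and 31.0 CPM at 2 days and 23.0 and 22.1 CPM at 4 days on the soft gel. On the stiff matrix it was 26.9 and 30.2 CPM and then 22.6 and 24.8 CPM, so that the libraries of the 2 times did not overlap on either matrix. Of all genes tested, 36.7% on the soft and 31.1% on the stiff gel were likewise lower without overlap. The stem-loop H2A genes held a mean of 11.1 of the 32.9 CPM on the soft gel at 2 days, and HIST1H2AC and HIST3H2A the rest. HIST1H2AC, at chr6:26124373-26139344, had 14.3 and 12.7 CPM at 2 days and 10.3 and 10.3 CPM at 4 days on the soft gel, a log2 fold change of -0.39 (adjusted p = 0.121 by edgeR). HIST3H2A, at chr1:228622478-228645574, had 8.66 and 7.92 CPM and then 4.99 and 4.6 CPM, a log2 fold change of -0.79 (adjusted p = 0.0784 by edgeR). Its replicates on the stiff gel at 4 days differed by -0.97 on the log2 scale.

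The medians of the other classes were less alike between the matrices. For H3 the median was -0.64 on the soft and -0.03 on the stiff gel, for H2B -0.39 and -0.13, for H4 0.12 and 0.37, and for H1 0.60 and 0.08. The H1 genes separated into the abundant HIST1H1C and the rare HIST1H1B, HIST1H1D and HIST1H1E. HIST1H1E, at chr6:26156557-26157343, had 27 and 21 counts at 2 days and 42 and 33 at 4 days on the soft gel, but 22 and 47 and then 23 and 13 on the stiff gel. The median over all members on the stiff gel, -0.17, became -0.53 without the first and 0.070 without the second stiff library at 2 days, so its direction rested on which of these 2 libraries was kept.

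**Figure D4:**
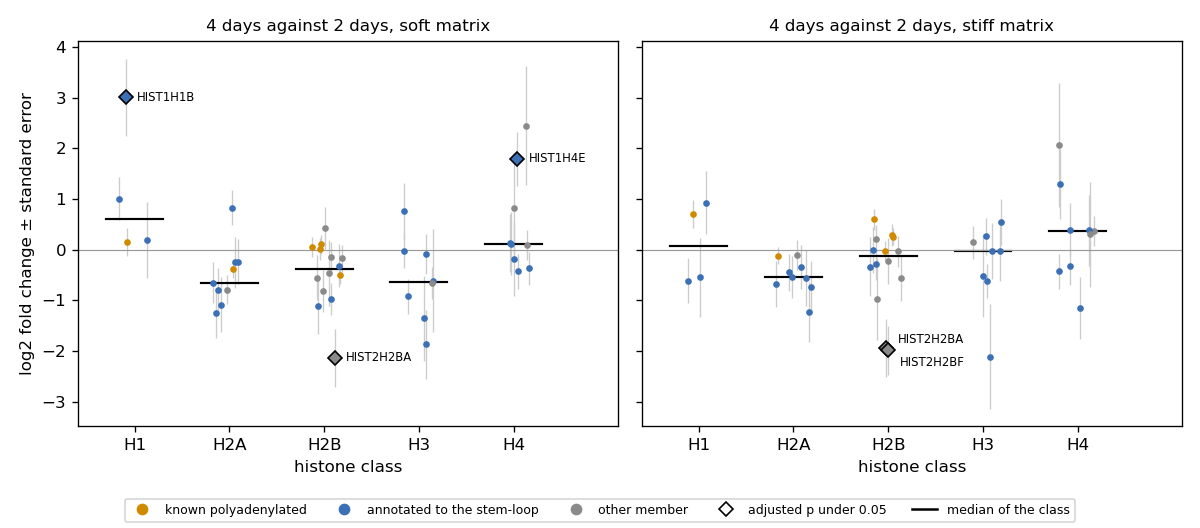
Log2 fold change of 4 days against 2 days, with its standard error, for the 44 clustered histone genes tested, by histone class and matrix. Diamonds with a name passed an adjusted p of 0.05, and black bars are class medians. The H2A medians, -0.65 and -0.54, lie below 0 on both matrices.

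**Figure D5:**
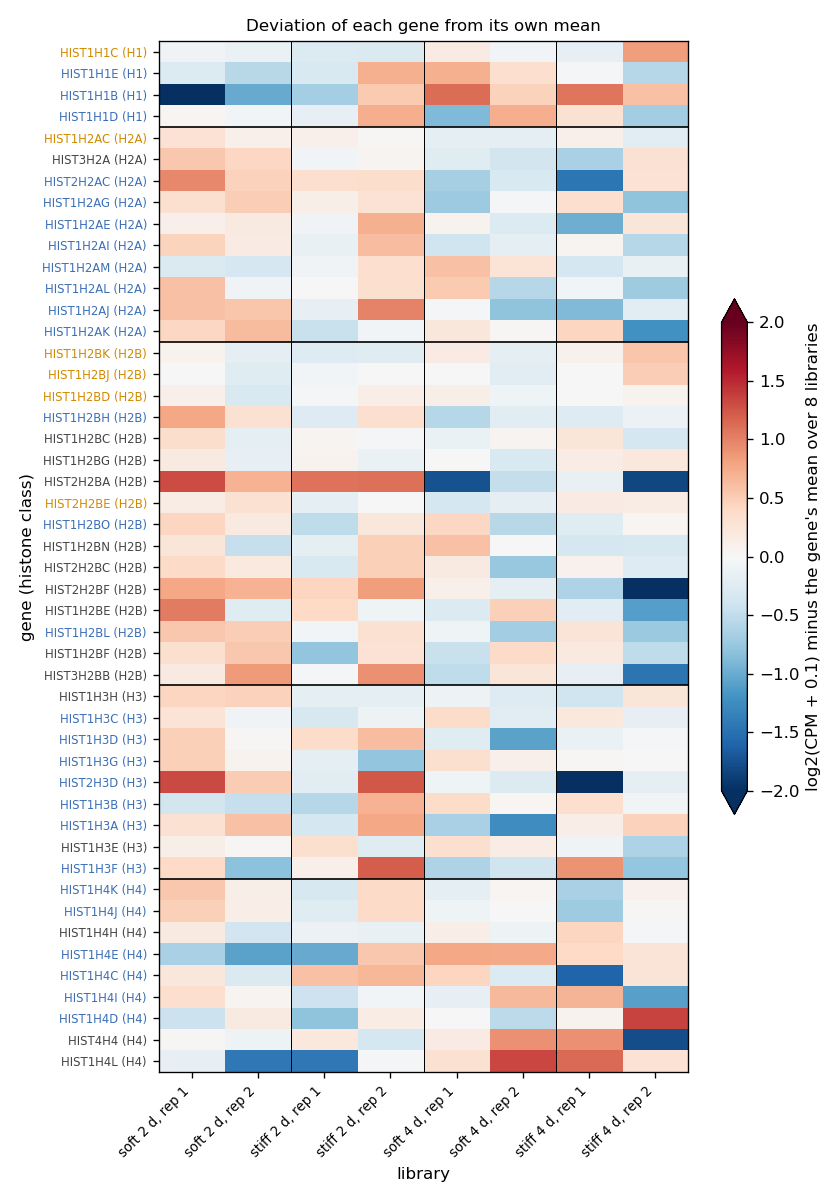
Deviation of log2(CPM + 0.1) from each gene's mean over the 8 libraries (columns) for the 48 clustered histone genes (rows, by class and falling mean FPKM). Red is higher and blue lower. The second stiff library at 2 days is mostly red in the stem-loop members (blue names), and HIST1H1C and HIST1H2BK each have their highest value in the second stiff library at 4 days.

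The 6 known polyadenylated genes were compared on their own. None passed edgeR's test in any comparison. DESeq2 called HIST1H2BK higher at 4 days on the stiff gel, where it called 14.9% of all genes higher. With offsets from gene model length, HIST1H1C and HIST1H2BK were called higher there, and HIST1H1C on the soft gel, where that fit called 25.1% and 23.7% of all genes higher. In the edgeR fit the median log2 fold change of the 6 from 2 to 4 days was 0.032 on the soft gel and 0.27 on the stiff gel, against -0.28 and -0.38 for the 26 stem-loop members tested. HIST1H1C, at chr6:26055968-26056698, had 70.2 and 67.7 CPM on the soft and 61.1 and 60.4 CPM on the stiff gel at 2 days, and 82.6 and 70.9 CPM on the soft and 66.2 and 131.5 CPM on the stiff gel at 4 days. One library, the second stiff one at 4 days, held the highest value by far. Most genes with models of similar length also stood higher in that library than in its replicate, as given above. From 2 to 4 days on the stiff gel the log2 fold change of HIST1H1C was 0.70 (SE 0.28, adjusted p = 0.0992 by edgeR).

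HIST1H2BK, at chr6:27114140-27114634, followed the same order, with 59.0 and 59.9 CPM on the stiff gel at 2 days and 75.3 and 104.4 CPM at 4 days (log2 fold change 0.60, adjusted p = 0.0604 by edgeR). HIST1H2BJ, at chr6:27093676-27100574, had 7.25 ± 0.22 CPM at 2 days and 8.90 ± 2.16 CPM at 4 days (SD, n = 2) on the stiff gel. HIST1H2BD, at chr6:26158350-26171577, differed little between conditions, with means between 10.6 and 11.7 CPM. HIST1H3H and HIST1H3C, the highest H3 genes, had 1.09 to 1.74 and 1.01 to 1.28 CPM as condition means, and neither passed the test in any comparison.

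The gap between the 2 sets at 4 days on the stiff gel can be seen from their sums. The stem-loop members had 36.8 and 29.5 CPM on the soft gel at 2 days and 28.1 and 25.2 CPM at 4 days, and 24.9 and 38.6 and then 23.5 and 26.4 CPM on the stiff gel. The 2 times did not overlap on the soft gel and overlapped on the stiff gel. The 6 known polyadenylated genes had 187.1 and 167.9 and then 198.2 and 167.1 CPM on the soft gel, which overlapped. They had 158.1 and 160.2 and then 181.9 and 277.4 CPM on the stiff gel, which did not. HIST1H1C and HIST1H2BK held 188.7 of the mean of 229.6 CPM of the 6 on the stiff gel at 4 days. Of all genes tested, 36.7% were lower without overlap on the soft gel and 31.6% higher without overlap on the stiff gel.

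Genes of proliferation were measured beside the histone genes. Of 32 DNA replication and G1/S genes, 8 rose and 2 fell from 2 to 4 days on the soft gel and 13 rose and 1 fell on the stiff gel, with medians of 0.28 and 0.42. These counts and those of the lists that follow stand against 14.1% of all genes called higher and 13.3% lower on the soft gel, and 14% and 13.7% on the stiff gel, and no list was tested against them. GINS1, a subunit of the replicative helicase, had 38.2 and 42.7 CPM on the soft gel at 2 days and 88.9 and 79.6 CPM at 4 days (log2 fold change 1.06, adjusted p = 0.00322 by edgeR). PCNA, the sliding clamp of DNA polymerase, rose on the stiff gel (0.94, adjusted p = 0.0364 by edgeR), and its value on the soft gel was 0.65 (adjusted p = 0.107 by edgeR). TYMS, the thymidylate synthase gene, fell on both, by 1.02 and 0.93 on the log2 scale. Of 24 G2/M and mitosis genes, 3 rose and 2 fell on the soft gel and 5 rose and 1 fell on the stiff gel. CDK1, the kinase that drives entry into mitosis, rose by 0.94 and 1.09 on the log2 scale, whereas the proliferation marker MKI67 had -0.45 (adjusted p = 0.187 by edgeR) and -0.51 (adjusted p = 0.141 by edgeR). Of the 11 genes of cell cycle exit, 2 rose on each matrix, CCNG2 and CDKN1B, and CDKN1A fell on the stiff gel.

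The medians of the DNA replication genes and of the stem-loop members lay on opposite sides of 0. The stem-loop members called with time on the soft gel, HIST1H1B and HIST1H4E, nevertheless rose. On the soft matrix the median was 0.28 for the DNA replication genes and -0.28 for the stem-loop members, and on the stiff gel 0.42 and -0.38. On the stiff gel the summed levels of the stem-loop members overlapped between the 2 times, and their 2-day replicates lay far apart. The median over all members there was 0.070 without the second stiff library at 2 days. The 2 lists differ in transcript length and in poly(A) tail as well as in function, and these cannot be told apart here. None of the genes of the proliferation lists was called between the matrices at either time.

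The factors that make and handle histone mRNA were mixed. SLBP had 219.3 and 201.5 CPM on the soft and 193.0 and 195.8 CPM on the stiff gel at 2 days, and 250.1 and 224.1 CPM on the soft and 215.0 and 272.1 CPM on the stiff gel at 4 days. Its log2 fold changes with time of 0.17 and 0.33 (soft, stiff) did not pass the test. NPAT, a coactivator of histone genes, had 0.10 and 0.09. Of the 14 genes of this list, 3 rose and 2 fell on the soft gel and 1 rose and 3 fell on the stiff gel. CPSF3, the nuclease that cuts histone pre-mRNA, rose by 0.56 and 0.57, whereas LSM11, a U7 snRNP protein, fell by 0.75 and 1.06, and UPF1, which takes part in histone mRNA decay, fell by 0.56 and 0.58 on the log2 scale. POU2F1, the octamer-binding factor, and CPSF2 rose on the soft gel by 0.71 and 0.78, and SYMPK, a scaffold of the cleavage complex, fell by 0.43 on the stiff gel.

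Histone chaperones and the replacement histones, whose mRNA is polyadenylated, were also mixed. Of 15 chaperone genes tested, 3 rose and 3 fell on the soft gel and 4 rose and 3 fell on the stiff gel. NAP1L1 rose by 0.86 and 0.87, HAT1, which acetylates new H4, by 0.73 and 0.84, and ASF1A by 0.72 and 0.77, while TONSL fell by 1.33 and 1.09 on the log2 scale. Of 11 replacement and variant histone genes tested, 3 rose and 1 fell on the soft gel and 4 rose and 1 fell on the stiff gel. H2AFZ, which encodes H2A.Z, had 421.1 and 385.0 CPM on the soft gel at 2 days and 855.8 and 683.0 CPM at 4 days (log2 fold change 0.93, adjusted p = 0.0278 by edgeR), and 1.23 on the stiff gel. H2AFV and H2AFY2 rose on both matrices, and CENPA, the centromeric H3, rose by 0.80 on the stiff gel. H3F3C, a retrogene of H3.3 whose reads can be shared with its parent genes, fell from 7.99 and 6.94 to 0.513 and 0.451 CPM on the soft gel. In the same libraries the clustered H2A genes had medians below 0, without a call, while H2AFZ and H2AFV rose.

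RNA that carries no poly(A) tail gave a view of the libraries that does not rest on histone genes. Of 30 such genes listed, 19 had a row in the table and 9 were tested. On the soft matrix 1 rose and 3 fell from 2 to 4 days, and on the stiff gel 3 fell. RPPH1 rose on the soft gel, from 13 and 16 counts to 114 and 88 (log2 fold change 3.16, adjusted p = 0.0372 by edgeR), and had 11 and 102 and then 26 and 61 counts on the stiff gel. RMRP had 37 and 17 and then 84 and 89 counts on the soft gel, and 12 and 243 and then 41 and 36 on the stiff gel, without passing the test. SCARNA12 and SCARNA17, which guide the modification of spliceosomal RNA, fell on both matrices. VTRNA1-3, a vault RNA, had 18 and 12 counts at 2 days and 0 at 4 days on the soft gel, and was at least 7.76-fold lower when 3 counts over the group are taken as the floor. These RNAs thus moved in both directions, and their part in the values of the stem-loop members was not tested.

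The markers of the other cell types in liver were low or absent. Of the 9 stellate and myofibroblast markers tested, 3 rose with time on each gel. VIM, a stromal filament gene, had 1966 to 6360 CPM and COL1A1 503.9 to 1021 CPM, whereas LRAT, which esterifies vitamin A in quiescent HSCs, was listed at 0 in 7 of 8 libraries. Of the 6 hepatocyte markers the summed level was 4.41 to 10.5 CPM, nearly all from SERPINA1, with TTR and FGB at 0. The 6 leukocyte and macrophage markers summed to 91.7 to 127.1 CPM, nearly all from CD68, with CD163 at 0 and PTPRC at 0.503 to 2.89 CPM. The 6 endothelial markers summed to 2.44 to 5.11 CPM and the 5 cholangiocyte markers to 32.2 to 71.2 CPM, the latter from KRT7 and SOX9 with CFTR at 0.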

How the data were processed

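RNA-seq of 8 libraries was analysed. Per the labels and the study's methods, the authors trimmed reads with Trim Galore, mapped them to hg19 with STAR 2.7.1a and counted them with htseq-count. The deposited counts per gene are not normalized. The authors also deposited FPKM, which were scaled by size factors, since the gene lengths they imply were whole numbers (within 0.01 bases) in 100% of 20029 genes. The gene annotation and the strand setting are not given in the sources used here, so overlapping genes on opposite strands cannot be told apart. No value column lacked a sample.

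Counts were tested in R 4.3.3 with edgeR 4.0.16: filterByExpr by condition kept 14570 genes, scaled by TMM, with 1 quasi-likelihood fit of 4 conditions to all 8 libraries. The threshold was an adjusted p of 0.05 (Benjamini-Hochberg, over all genes tested). Log2 CPM used a prior count of 2. The fit shares 1 estimate of the spread between conditions. Exact permutation of 2 against 2 libraries cannot go below p = 0.333, so sums over genes are given without a test. Total counts of 19955975 to 27263935 limit genes near 1 CPM to about 20 counts a library. Alternatives were DESeq2 1.42.0, limma 3.58.1 on log2(FPKM + 1) and log2(FPKM + 0.1), RLE or no scaling factors, other filters, separate fits, a replicate block and leaving out each library. Offsets from gene model length, a crossed pairing and fits to subsets of the members were chosen after seeing the data. The fit was tested on simulated data.

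Replicate numbers did not pair the libraries: deviations of same-numbered libraries correlated at -0.04 and -0.49 between matrices (2 and 4 days) and 0.08 and 0.02 between times (soft, stiff).

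The members and gene lists were chosen with earlier results of these data known. Named were the members called in any comparison, the 2 highest by mean FPKM in each class, the 6 known polyadenylated genes, up to 4 called genes per other list, and SLBP, NPAT, PCNA, MKI67, RMRP and RPPH1. Other genes were named after their values were seen. RN7SK had no row and is not analysed here.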

Additional observations from a re-analysis of the deposited data

How the results depend on the processing

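Between the gels, no clustered histone gene passed at 2 days under any alternative run, and at 4 days or in the interaction none passed except without the first stiff library at 4 days. Leaving out 1 library at a time gave 0 to 7 members at 4 days and 0 to 6 in the interaction. A lone library left in a condition was assumed to vary like the others. The counts with time were less settled, and the cause was not tested. DESeq2 called 4 members on the soft gel and 3 on the stiff gel. On the soft gel, where 3 members passed, leaving out 1 library gave 0 to 14, RLE scaling 5, the 2 conditions fitted alone 14, limma on log2(FPKM + 1) or log2(FPKM + 0.1) 6, and offsets from gene model length, chosen after seeing the data, 6. Among members with models over 700 bases the count was 1, and among the 6 known polyadenylated genes 0. On the stiff gel, where 2 passed, leaving out 1 library gave 0 to 7, a minimum of 10 counts in every library 0 (both called members fall below it at 4 days and were not tested), the 2 conditions alone 0, limma on log2(FPKM + 0.1) 1, and length offsets 4. Members with models up to 700 bases gave 1, those over 700 bases 1, the 6 known polyadenylated genes 0 and the stem-loop members 0. With the replicate block the count was 1 on each gel. The numbers do not pair the libraries, so this is no measure of a weaker effect. The crossed pairing was run because the correlation at 4 days was -0.49, and gave 0 members.

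The median log2 fold change of members with models over 700 bases was 0.14 for stiff against soft at 2 days and 0.10 for time on the soft gel. Among the 6 known polyadenylated genes it was 0.36 for stiff against soft at 4 days, and 0.032 and 0.27 for time on the soft and stiff gels. The median over members for time on the stiff gel ran from -0.53 to 0.070 when 1 library was left out. Restricted to models up to 700 bases, the summed level was 74.0, 66.9, 57.0 and 59.3 CPM (soft and stiff at 2 days, soft and stiff at 4 days). Without scaling factors the median of all genes moved by -0.13 for time on the stiff gel and -0.11 for stiff against soft at 4 days. No value changed sign among the members called. Most members had few counts, and a change in 1 of them may not have been detectable at this depth.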
